A study of Mus musculus with 12 samples.

Results

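The subcortical maternal complex is a protein assembly that lies beneath the membrane of mammalian oocytes and is carried over into the early embryo. Its genes are transcribed in growing oocytes, the RNA is read into protein before fertilisation, and embryos of mouse mothers that lack a member stop or are delayed in early cleavage. The 5 genes described here are Nlrp5 (also called Mater), Ooep (Floped), Tle6, Khdc3 (Filia) and Padi6. They were found by symbol in the annotation of an Illumina mouse bead array and are covered by 7 of its 45281 probes, among 19057 genes with a symbol of their own. Nlrp5 has 3 of these probes, ILMN_3152906, ILMN_2696556 and ILMN_2646011, called probes 1, 2 and 3 below in order of brightness. Ooep (ILMN_2645460), Tle6 (ILMN_2900617), Khdc3 (ILMN_1239178) and Padi6 (ILMN_1216003) have 1 each.

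Total RNA of whole ovaries from FVB/N females at 14 dpn was measured in 4 groups of 3 arrays: Tg Foxo3-/-, NoTg Foxo3-/-, Tg Foxo3+/- and NoTg Foxo3+/-. Tg and NoTg mark presence and absence of a transgene, which the series title describes as a constitutively active Foxo3 in oocytes; the labels name no promoter for it. No group carries the wild-type Foxo3 genotype, since the controls are heterozygous. FOXO3 is a forkhead transcription factor known in mouse oocytes for keeping resting follicles from starting to grow. The labels do not say that samples are separate animals, so p-values here reflect only the spread among these samples, part of which can be technical.

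Each array detected 20072 to 22015 probes above its negative controls, and pairs of arrays correlated at 0.977 to 0.994 over the tested probes. The median background intensity was 68.5 to 74.2 in Tg Foxo3-/-, 79.9 to 81.2 in NoTg Foxo3-/-, 65.4 to 67 in Tg Foxo3+/- and 76.3 to 79.8 in NoTg Foxo3+/- arrays, so it differed with both factors. Of 3 probes for Foxo3, 1 was detected on all 12 arrays. Its log2 level was 8.21 to 8.37 in Tg Foxo3-/-, 8.18 to 8.65 in NoTg Foxo3-/-, 7.87 to 8.13 in Tg Foxo3+/- and 7.81 to 8.44 in NoTg Foxo3+/- ovaries, and it was not called in the averaged genotype comparison (log2 difference 0.35, limma adjusted p = 0.0816). The sources do not place the probe inside or outside the targeted exons or the transgene, so its level is no check of the labels. Oocyte and granulosa cell markers were present, with 9 of 10 oocyte markers detected on all 12 arrays and the exception, Zp2, on 4.

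All 7 probes of the complex were detected on all 12 arrays with a detection p of 0. Padi6 lay at 39.1% to 85.8% of the highest intensity on its array, Nlrp5 probe 1 at 40.5% to 61.9% and Ooep at 33.7% to 63.5%. Tle6 lay at 19.9% to 40.0%, Khdc3 at 2.51% to 5.87% and Nlrp5 probe 3 at 1.89% to 7.05%. Probes bind with different strength, so these shares place each probe on its array's scale and do not rank the genes. Levels below are log2 intensities after background correction and quantile normalization between arrays. Quantile normalization gives probes of the same rank the same value, and some of the bright probes therefore repeat a value across arrays.

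In Foxo3-/- ovaries, averaged over both transgene states, all 5 genes were higher than in Foxo3+/- ovaries. Khdc3 was 1.70-fold higher, Tle6 1.47-fold, Padi6 1.32-fold, Ooep 1.22-fold and Nlrp5 1.19-fold by probe 1. The dimmer Nlrp5 probe 3 gave 1.79-fold, so these folds belong to single probes and do not rank the genes. Whether probe brightness shaped the folds was not tested. All 5 passed limma's adjusted p under 0.05, where 4.13% of the 22511 tested probes were called higher, and their median log2 difference was 0.40 against 0.0072 over all tested probes. For 4 of the 5 genes every one of the 6 Foxo3-/- arrays lay above every one of the 6 Foxo3+/- arrays, a separation that 2.45% of tested probes showed in this direction. The gene that overlapped was Nlrp5. In RNA of whole ovaries, a difference in the number or size of oocytes and a difference in RNA per oocyte cannot be told apart.

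**Figure D1:**
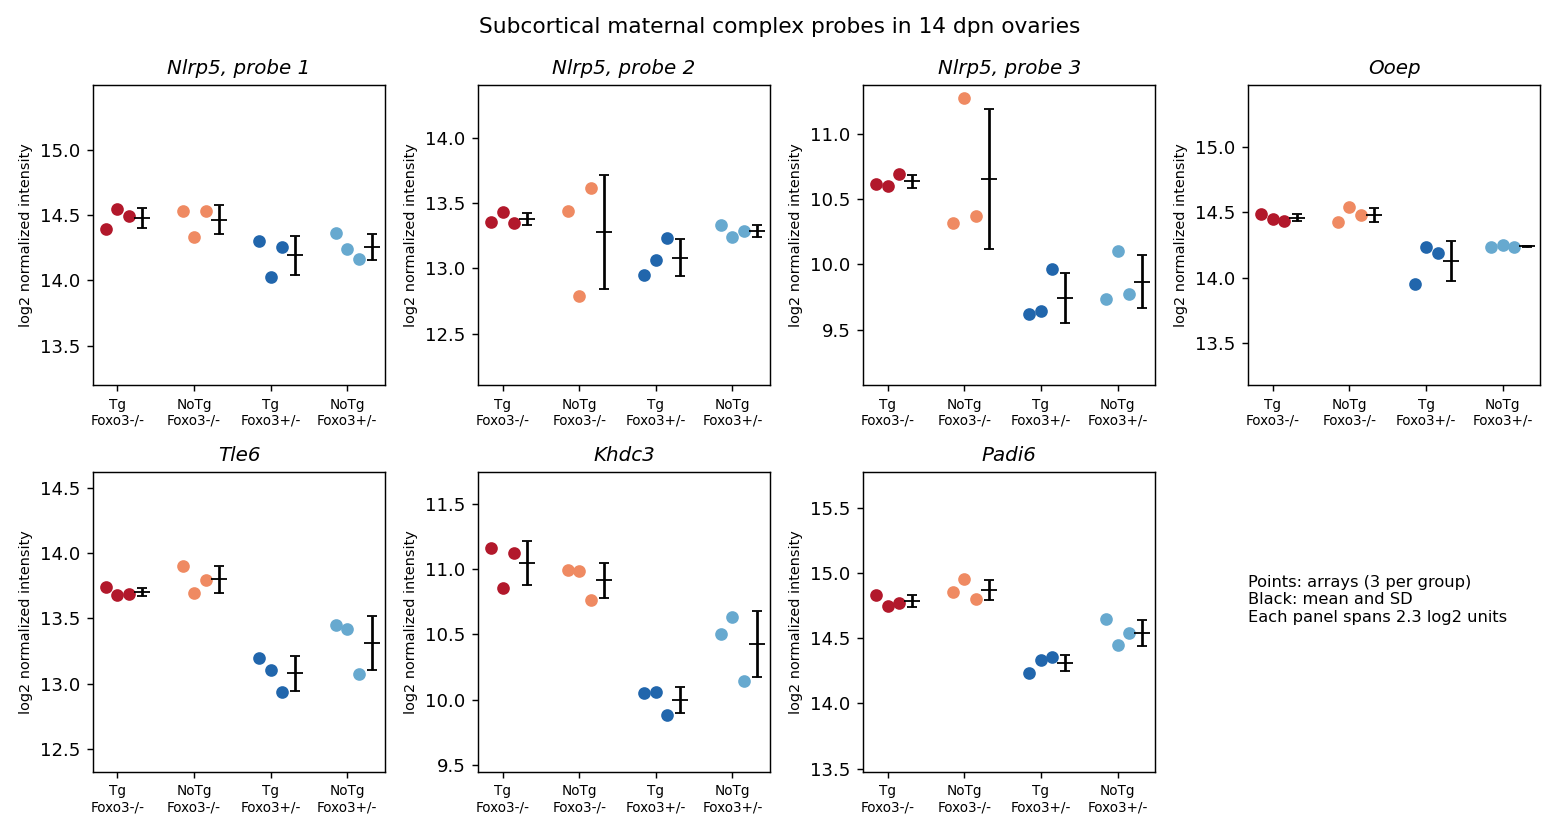
Log2 normalized intensity of the 7 probes on each array, in a panel per probe, with the 4 groups along the horizontal axis and each vertical axis spanning the same width. Points are arrays, and black bars give the mean and SD of 3 arrays. Khdc3, Tle6, Padi6, Ooep and Nlrp5 probe 3 show no overlap between the 6 Foxo3-/- and the 6 Foxo3+/- arrays, and NoTg Foxo3-/- replicate 2 stands apart in both Nlrp5 probe 2 and probe 3.

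Nlrp5 encodes a leucine-rich repeat protein that is a core part of the complex in mouse eggs. Probe 1 read 14.39, 14.55 and 14.49 in Tg Foxo3-/- and 14.53, 14.33 and 14.53 in NoTg Foxo3-/- ovaries, against 14.30, 14.02 and 14.26 in Tg Foxo3+/- and 14.36, 14.24 and 14.17 in NoTg Foxo3+/- ovaries. The groups overlapped in NoTg ovaries and did not in Tg ovaries. The averaged log2 difference was 0.25 ± 0.07 (SE; limma adjusted p = 0.0356). The call was lost in 13 of 23 other settings, 9 of which left out a single array, with values of 0.20 to 0.28 and adjusted p of 0.0169 to 0.0913 when any 1 array was left out. The single arrays whose removal kept the call were NoTg Foxo3-/- replicate 2, Tg Foxo3+/- replicate 1 and NoTg Foxo3+/- replicate 1.

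The other Nlrp5 probes did not give the same size. Probe 3 read 10.62, 10.60 and 10.69 in Tg Foxo3-/- and 10.32, 11.28 and 10.37 in NoTg Foxo3-/- ovaries, against 9.62, 9.65 and 9.96 in Tg Foxo3+/- and 9.73, 10.10 and 9.77 in NoTg Foxo3+/- ovaries. It was 1.79-fold higher in Foxo3-/- ovaries on average (log2 0.84 ± 0.14 SE, adjusted p = 0.00165). Probe 2 read 13.36, 13.43 and 13.35 in Tg Foxo3-/- and 13.44, 12.78 and 13.61 in NoTg Foxo3-/- ovaries, against 12.95, 13.06 and 13.23 in Tg Foxo3+/- and 13.33, 13.24 and 13.28 in NoTg Foxo3+/- ovaries. Its averaged difference was 0.15 ± 0.11 (SE) and was not called (adjusted p = 0.446). NoTg Foxo3-/- replicate 2 was the highest of the 12 arrays for probe 3 and the lowest for probe 2. Without that array the averaged difference of probe 2 was 0.27 and was called (adjusted p = 0.0297). With the 3 probes averaged, Nlrp5 was higher by 0.41 in the averaged comparison (adjusted p = 0.000957). Within groups, probes 2 and 3 deviated in opposite directions (correlation -0.75). Averaging cancels part of that disagreement, and the adjusted p of the average does not reflect it. All 3 probes are annotated to the same transcript, and where each lies on it is not given.

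Ooep encodes a small protein with a KH-like domain that joins the core of the complex. It read 14.49, 14.45 and 14.44 in Tg Foxo3-/- and 14.43, 14.54 and 14.48 in NoTg Foxo3-/- ovaries, against 13.95, 14.24 and 14.19 in Tg Foxo3+/- and 14.24, 14.25 and 14.24 in NoTg Foxo3+/- ovaries. Every Foxo3-/- array was above every Foxo3+/- array, although the gap was narrow. The averaged log2 difference was 0.29 ± 0.06 (SE, adjusted p = 0.00899). Under median scaling in place of quantile normalization it was 0.35 and not called (adjusted p = 0.0646).

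Tle6 encodes a protein related to the Groucho co-repressors that takes part in the core of the complex. It read 13.74, 13.68 and 13.69 in Tg Foxo3-/- and 13.90, 13.70 and 13.80 in NoTg Foxo3-/- ovaries, against 13.20, 13.11 and 12.94 in Tg Foxo3+/- and 13.45, 13.42 and 13.08 in NoTg Foxo3+/- ovaries. The lowest Foxo3-/- array was above the highest Foxo3+/- array. The averaged log2 difference was 0.55 ± 0.08 (SE, adjusted p = 0.000414).

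Khdc3 encodes a KH domain protein that binds the core and is known in mouse embryos for its part in keeping chromosome number intact. It read 11.16, 10.85 and 11.12 in Tg Foxo3-/- and 10.995, 10.99 and 10.76 in NoTg Foxo3-/- ovaries, against 10.05, 10.06 and 9.88 in Tg Foxo3+/- and 10.50, 10.63 and 10.14 in NoTg Foxo3+/- ovaries. The groups did not overlap, and the 3 Tg Foxo3+/- arrays were the lowest of the 12. The averaged log2 difference was 0.77 ± 0.09 (SE, adjusted p = 0.000130), and it was 0.70 to 0.82 when any 1 array was left out.

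Padi6 encodes a member of the peptidylarginine deiminase family that mouse oocytes need to form their cytoplasmic lattices. It read 14.84, 14.75 and 14.77 in Tg Foxo3-/- and 14.86, 14.95 and 14.80 in NoTg Foxo3-/- ovaries, against 14.24, 14.33 and 14.35 in Tg Foxo3+/- and 14.64, 14.45 and 14.54 in NoTg Foxo3+/- ovaries. All Foxo3-/- arrays were above all Foxo3+/- arrays. The averaged log2 difference was 0.40 ± 0.06 (SE, adjusted p = 0.000682).

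The array background moved with the genotype in both transgene states, and within each state its values did not overlap between genotypes. Mean raw background was higher in Foxo3-/- arrays by 4.33 in Tg and 2.6 in NoTg. By brightest probe, Khdc3 differed least in raw intensity (944 in Tg, 871 in NoTg) and Padi6 most (8756 and 7938). A covariate so tied to genotype also widens the error of the genotype difference, and the background's part in that difference was not tested. With the array background as a covariate, 0 of the 5 genes were called and 119 of all tested probes were, while the averaged log2 differences stayed above 0 at 0.61 for Khdc3 (adjusted p = 0.0535), 0.43 for Tle6 (adjusted p = 0.107), 0.36 for Padi6 (adjusted p = 0.101), 0.27 for Nlrp5 probe 1 (adjusted p = 0.310) and 0.26 for Ooep (adjusted p = 0.270).

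Promoter windows of 3 members are shown, since known regulators of oocyte genes bind short motifs in such windows. They are that of Khdc3, which had the largest averaged difference of the 5 genes by brightest probe, and those of Ooep and Padi6. The Ooep and Padi6 windows cover the gene's start, as does a window of Nlrp5. Levels of Ooep and Padi6 correlated at 0.93 over the 12 arrays, which hold the genotype difference, and at 0.52 after each group's mean was removed. Tle6 and Khdc3 were closer, at 0.94 over the 12 arrays. FIGLA, a basic helix-loop-helix factor of oocytes, binds E-boxes (CANNTG), and the homeobox factor NOBOX binds elements with TAATTG. Each window, from RefSeq on GRCm38.p6, holds 250 bases before and 50 after a transcript start. The Khdc3 window is chr9:73102148-73102447 on the plus strand and begins from a start inside the annotated gene. The Ooep window is chr9:78378539-78378838 and the Padi6 window chr4:140742594-140742893, both on the minus strand. Capitals mark E-boxes and, read on either strand, NOBOX elements.
Khdc3: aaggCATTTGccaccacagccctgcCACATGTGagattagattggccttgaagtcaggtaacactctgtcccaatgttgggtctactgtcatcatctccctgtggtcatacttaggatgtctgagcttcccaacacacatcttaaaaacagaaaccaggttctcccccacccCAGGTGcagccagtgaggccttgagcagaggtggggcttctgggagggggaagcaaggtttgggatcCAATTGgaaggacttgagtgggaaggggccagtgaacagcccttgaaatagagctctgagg
Ooep: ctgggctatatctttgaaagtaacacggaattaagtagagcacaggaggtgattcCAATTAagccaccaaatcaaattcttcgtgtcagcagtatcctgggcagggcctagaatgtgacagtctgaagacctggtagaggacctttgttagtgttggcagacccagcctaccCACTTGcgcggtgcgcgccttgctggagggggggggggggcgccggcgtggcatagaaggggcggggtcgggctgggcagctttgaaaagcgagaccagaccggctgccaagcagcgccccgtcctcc
Padi6: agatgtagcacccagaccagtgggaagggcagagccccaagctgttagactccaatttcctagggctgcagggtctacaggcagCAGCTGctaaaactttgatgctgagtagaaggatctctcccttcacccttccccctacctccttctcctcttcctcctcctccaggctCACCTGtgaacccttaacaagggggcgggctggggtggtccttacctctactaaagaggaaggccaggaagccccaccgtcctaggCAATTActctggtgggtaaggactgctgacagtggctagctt

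The Khdc3 window held 5 E-boxes, of which CACATG and CATGTG overlap, the Ooep window 1 and the Padi6 window 2. At least 1 E-box was also present in all windows of Nlrp5 and Tle6, but 72.3% of 32851 RefSeq windows of the same length hold one. A NOBOX element on the opposite strand (CAATTA) was found in the Ooep window, starting at position -195 from the transcript start, and in the Padi6 window, starting at position 9. Such an element is in none of the windows of Khdc3, Nlrp5 and Tle6, and it is present in 8% of all windows. The letters GTAAACA, a core motif of FOXO factors, were searched on both strands and are in none of the members' windows, as against 3.65% of all windows. These matches describe the letters of the windows and do not show binding.

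Within Tg ovaries, Foxo3-/- against Foxo3+/-, 3 of the 5 genes were called higher, where 1.49% of all tested probes were. Khdc3 was 2.07-fold higher (log2 1.05 ± 0.13 SE, adjusted p = 0.000651), Tle6 1.54-fold (log2 0.62 ± 0.11, adjusted p = 0.00564) and Padi6 1.39-fold (log2 0.48 ± 0.08, adjusted p = 0.00654). Nlrp5 probe 3 was 1.86-fold higher (adjusted p = 0.0250), a call lost without any 1 of the 3 Tg Foxo3-/- arrays or of Tg Foxo3+/- replicates 1 and 2 (0.83 to 0.91). The probe 3 call was also lost under median scaling (0.79, adjusted p = 0.157), the authors' values (0.80, adjusted p = 0.0643) and the background covariate (1.05, adjusted p = 0.230). Ooep stood at 0.33 ± 0.09 (adjusted p = 0.0576) and Nlrp5 probe 1 at 0.28 ± 0.10 (adjusted p = 0.145), neither of them called. Ooep was called with no background correction (0.33, adjusted p = 0.0448), a stricter filter (0.33, adjusted p = 0.0412) or array weights (0.28, adjusted p = 0.0150). Nlrp5 was called under array weights (0.32, adjusted p = 0.0156) and with its probes averaged (0.49, adjusted p = 0.00850). All 7 probes had non-overlapping groups, as did 12.9% of tested probes in this direction. Without Tg Foxo3-/- replicate 1, Padi6 was at 0.45 and not called (adjusted p = 0.0536), and under median scaling it was at 0.56 (adjusted p = 0.0848).

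Within NoTg ovaries, 1 of the 5 genes was called higher, where 0.4% of all tested probes were. That gene was Tle6, 1.40-fold higher in Foxo3-/- (log2 0.48 ± 0.11 SE, adjusted p = 0.0438). Its call was lost in 15 of 24 other settings, 10 of them leaving out a single array, with differences of 0.37 to 0.55 and adjusted p of 0.0259 to 0.138 over all 12 arrays left out in turn. Removal of Tg Foxo3+/- replicate 1 or 3 kept it. Khdc3 was at 0.49 ± 0.13 (adjusted p = 0.0905), Padi6 at 0.33 ± 0.08 (adjusted p = 0.0734), Ooep at 0.24 ± 0.09 (adjusted p = 0.205) and Nlrp5 probe 1 at 0.21 ± 0.10 (adjusted p = 0.330). These 4 differences were above 0 and not called. Padi6 was called without Tg Foxo3+/- replicate 1 (0.32, adjusted p = 0.0370), and Nlrp5 probe 3 without NoTg Foxo3-/- replicate 3 (0.93, adjusted p = 0.0493). The groups did not overlap for 4 of the 5 genes, as for 9.11% of tested probes in this direction.

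**Figure D2:**
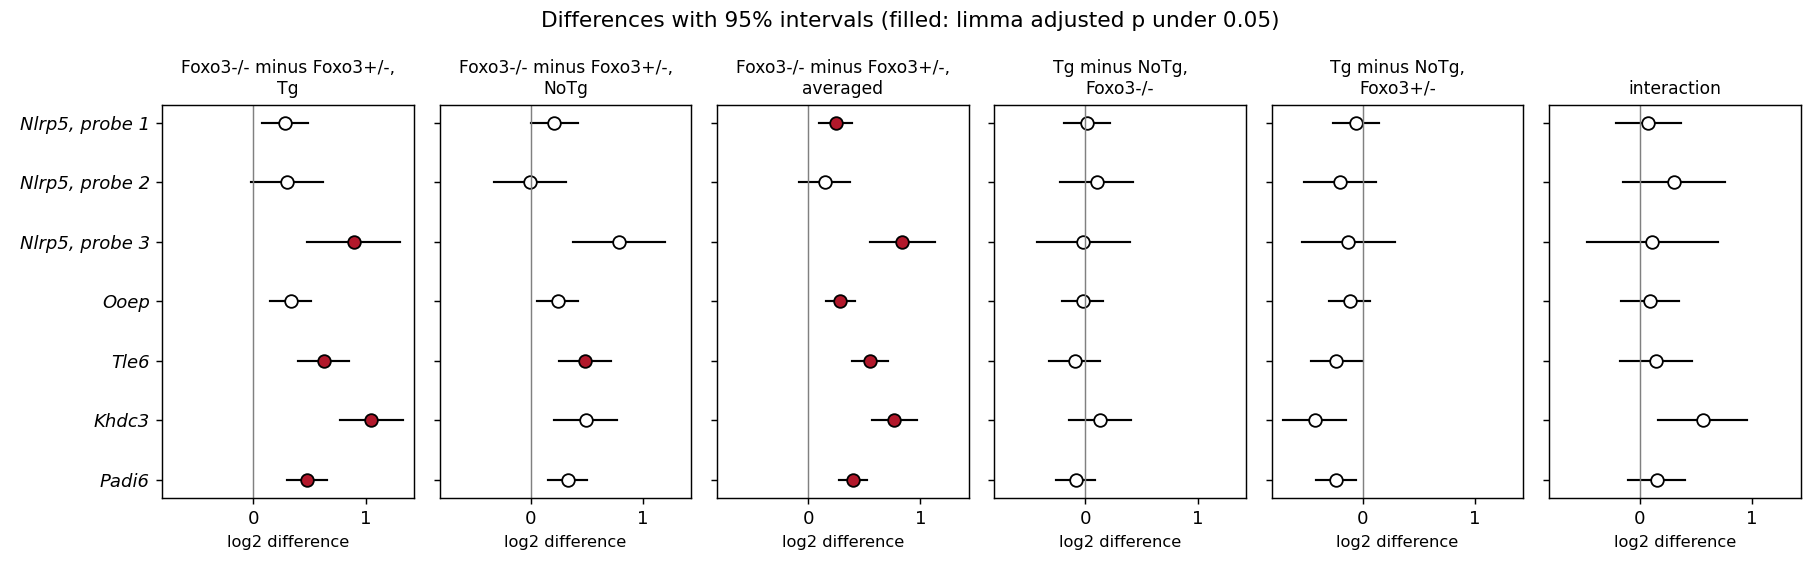
Log2 differences of the 7 probes with 95% intervals in 6 comparisons, each panel on the same horizontal scale and the probes down the vertical axis. Filled points have a limma adjusted p under 0.05. In the Foxo3 comparisons, the Khdc3 estimate was 1.05 in Tg and 0.49 in NoTg ovaries, and no filled point occurs in the transgene or interaction panels.

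The transgene was compared in each genotype. In Foxo3+/- ovaries all 7 probes were lower in Tg than in NoTg, by 0.06 to 0.43 on the log2 scale, and 0 of the 5 genes were called by limma, where 0.364% of tested probes were. Khdc3 differed by -0.43 ± 0.13 (SE; 95% interval -0.71 to -0.15, adjusted p = 0.201), Padi6 by -0.23 ± 0.08 (interval -0.41 to -0.06, adjusted p = 0.298) and Tle6 by -0.23 ± 0.11 (interval -0.46 to -0.01, adjusted p = 0.484). These 3 genes had an unadjusted p under 0.05, as did 9.96% of tested probes. Khdc3 and Padi6 had non-overlapping groups, with Tg lower, as did 7.84% of tested probes. The array background was lower in Tg than in NoTg arrays, and with it as a covariate the difference turned to 0.12 for Khdc3 and 0.21 for Tle6. In this genotype the background did not overlap between Tg (65.4 to 67) and NoTg (76.3 to 79.8) arrays. The covariate therefore widens the error of these differences too. Under median scaling that of Nlrp5 probe 3 turned to 0.032.

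In Foxo3-/- ovaries the Tg minus NoTg differences of the 5 genes were -0.09 to 0.13, with 0 called by limma and 0 at an unadjusted p under 0.05, where 0.191% and 10.5% of tested probes were. The 95% intervals were -0.15 to 0.41 for Khdc3, -0.32 to 0.13 for Tle6, -0.26 to 0.09 for Padi6, -0.21 to 0.16 for Ooep and -0.19 to 0.22 for Nlrp5 probe 1. Averaged over both genotypes, 0 genes were called, where 3.05% of tested probes were, and Tle6 (-0.16) and Padi6 (-0.16) had an unadjusted p under 0.05, as did 13.9% of tested probes.

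The 7 probes had their lowest group mean in Tg Foxo3+/- ovaries. For the 5 genes by their brightest probe, the order of means was Foxo3-/- in either transgene state, then NoTg Foxo3+/-, then Tg Foxo3+/-. These means are not adjusted for the array background. The 2 Foxo3-/- groups overlapped for every gene. The 2 Foxo3+/- groups overlapped for Nlrp5, Ooep and Tle6. Khdc3 averaged 11.05 ± 0.17 in Tg Foxo3-/-, 10.92 ± 0.13 in NoTg Foxo3-/-, 9.998 ± 0.098 in Tg Foxo3+/- and 10.43 ± 0.25 in NoTg Foxo3+/- ovaries (SD, n = 3 each).

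Whether the genotype difference itself depends on the transgene was tested by the interaction. It was above 0 for all 7 probes and called for 0 of the 5 genes and 0 of the 22511 probes by limma, with 4.23% of probes at an unadjusted p under 0.05. Khdc3 had an interaction of 0.56 (95% interval 0.16 to 0.96, unadjusted p = 0.00842, adjusted p = 0.994). The other 4 genes had estimates of 0.07 to 0.15, with intervals that include 0. A larger difference in Tg than in NoTg ovaries is therefore not shown for any member.

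Across the 12 arrays, the 10 pairs of members had Pearson correlations of 0.57 to 0.94, with a median of 0.83. The 12 arrays hold the genotype difference, and after each group's mean was removed the same pairs had correlations of -0.65 to 0.71, with 4 of 10 above 0. Tle6 and Khdc3 were the closest pair in both, at 0.94 and 0.71.

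Among 11753 other named genes, the 10 with the closest profile to the members' mean over the 12 arrays had Pearson correlations of 0.973 to 0.988. They were Tex19.1, Izumo4, Arhgef4, Kif4, Cd7, Nsf, Zp1, Acaa1b, Foxr1 and Homer2. Tex19.1, a gene of germ cells and early embryos, followed at 0.988 and was higher by 0.80 on the log2 scale in Foxo3-/- ovaries (adjusted p = 2.95e-05). Zp1, a zona pellucida protein gene, followed at 0.976 and was higher by 0.69 (adjusted p = 3.42e-05). All 10 share their arrays and the genotype split with the members. They were picked for closeness to a profile that is split by genotype. Their genotype differences and adjusted p therefore follow from the pick and add no separate result.

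Other oocyte genes gave a mixed picture in the averaged genotype comparison, where 4.13% of all tested probes were called higher and 4.22% lower. Of 6 zona pellucida and oocyte-secreted genes tested, 3 rose and 0 fell: Zp3 (log2 0.71, adjusted p = 7.14e-06), Zp1 and the growth factor Gdf9 (0.33, adjusted p = 0.00757), while Oosp1, an oocyte-secreted protein gene, was at 0.21 (adjusted p = 0.0895). Of 10 oocyte markers 3 rose, the same genes, and their median difference was 0.15. The summed intensity of these 10 markers was 54290 to 57410 in Tg Foxo3-/- and 54650 to 58470 in NoTg Foxo3-/- ovaries, against 39730 to 42800 in Tg Foxo3+/- and 42400 to 45210 in NoTg Foxo3+/- ovaries. It was higher in every Foxo3-/- array. The sum adds linear intensities and is led by the brightest probes, and Zp3, Gdf9 and Zp1 made up 93.1% of its genotype difference. Its part in the members' difference was not tested. The germ cell markers Ddx4 (0.17, adjusted p = 0.593) and Dazl (0.04, adjusted p = 0.910) were not called.

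Of 7 oocyte transcription factors 6 were tested, and 2 rose: Tbpl2, a TBP paralogue of oocytes (0.57, adjusted p = 0.00930), and the homeobox gene Lhx8 (0.35, adjusted p = 0.0294). Figla (-0.29, adjusted p = 0.288), Sohlh1 (-0.09, adjusted p = 0.748) and Nobox (0.06, adjusted p = 0.847) were not called. Of 14 other maternal effect genes 11 were tested, of which 4 rose and 1 fell, with a median of 0.13. For both lists, the shares called over all tested probes were 4.13% higher and 4.22% lower. The 4 were Dnmt1, the maintenance DNA methyltransferase (0.65, adjusted p = 2.07e-05), its cofactor Uhrf1 (0.36, adjusted p = 0.00170), Dppa3, which protects maternal methylation (0.39, adjusted p = 0.00390), and the nucleoplasmin gene Npm2 (0.44, adjusted p = 0.0190). The gene that fell was Dnmt3l, a cofactor of de novo methylation (-0.42, adjusted p = 0.0450).

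Of 13 listed paralogues of the members, 9 were tested, with 3 higher and 2 lower. Over all tested probes, 4.13% were called higher and 4.22% lower. The 3 were KH domain relatives of Ooep and Khdc3, namely Dppa5a (0.70, adjusted p = 0.000492), Khdc1c (0.47, adjusted p = 0.00368) and Khdc1b (0.42, adjusted p = 0.0109). The 2 were relatives of Tle6, namely the co-repressor Tle2 (-0.41, adjusted p = 0.0331) and Aes, now named Tle5 (-0.34, adjusted p = 0.0369). Tle1, Tle3 and Tle4 were at -0.16 to -0.03 and Padi2 at -0.07, none of them called.

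**Figure D3:**
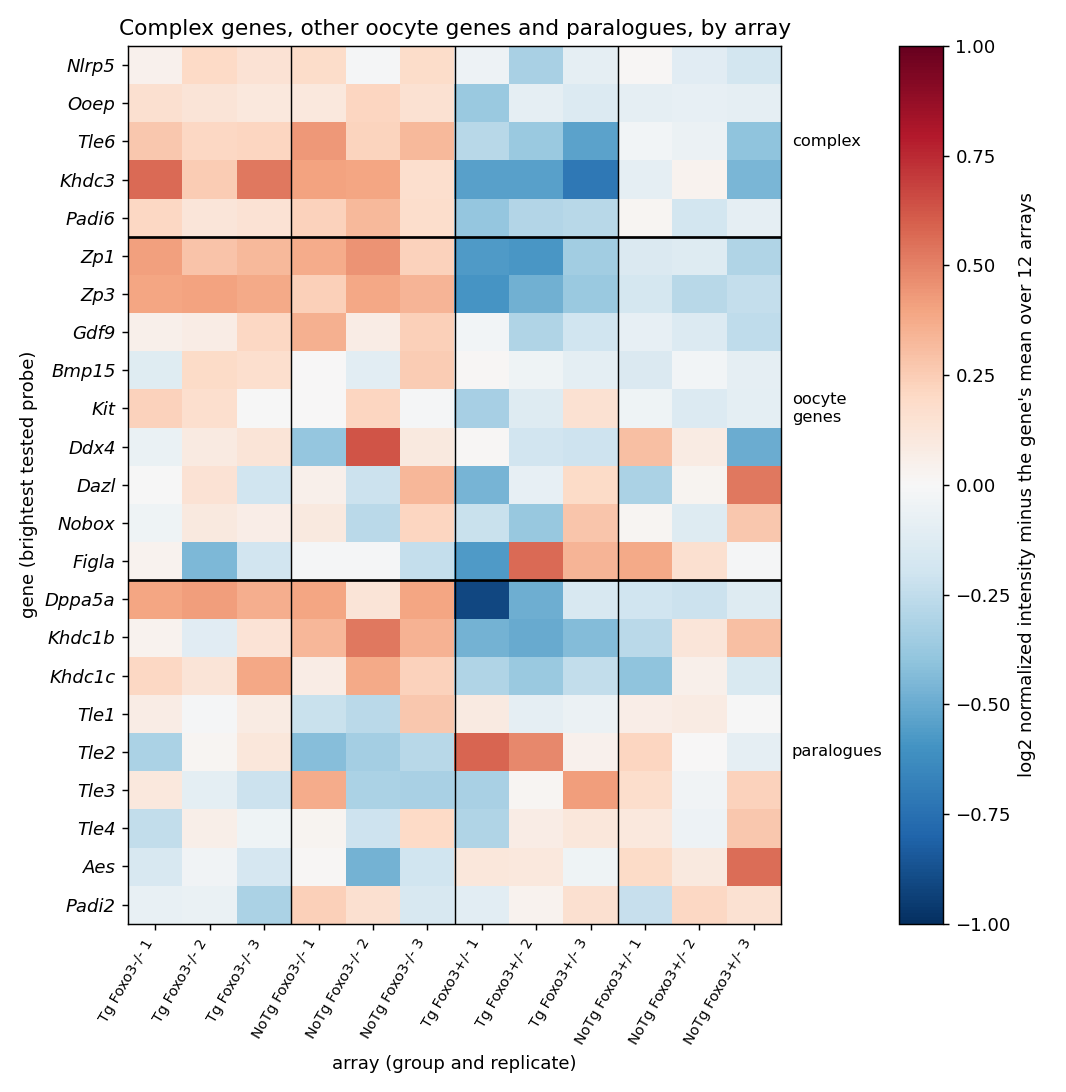
Log2 normalized intensity minus each gene's mean over the 12 arrays, for the 5 members, 9 other oocyte genes and 9 paralogues, with arrays in columns by group. Red is above and blue below the gene's mean. The members, Zp1, Zp3 and Dppa5a are red on the 6 Foxo3-/- arrays, apart from Nlrp5, which lies near its mean on Tg Foxo3-/- replicate 1 and NoTg Foxo3-/- replicate 2, whereas Tle2 and Aes tend the other way and Figla, Dazl and Ddx4 vary by array.

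Of 3 reported partners of the complex in mouse, 2 were tested. The zinc finger gene Zbed3 was not called in the genotype comparison (0.12, adjusted p = 0.812). In the transgene comparison averaged over genotypes, in which no member was called, it differed by -0.96 ± 0.25 (SE, adjusted p = 0.0430), with Tg lower, where 2.94% of tested probes were called lower. Zbed3 had low mean log2 levels: 6.30 in Tg Foxo3-/-, 7.33 in NoTg Foxo3-/-, 6.24 in Tg Foxo3+/- and 7.14 in NoTg Foxo3+/- (SD 0.92). The array background was also lower in Tg arrays, and its part in the Zbed3 difference was not tested. Over the other settings, the probes called in this comparison fell to as few as 0. Nlrp4f was above background on 5 of the 12 arrays, so the size of its difference is not given. It passed the filter and, like Zbed3, was called lower in Tg in the averaged transgene comparison. Nlrp2, detected on 0 arrays, was not tested.

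Position in the genome was set beside these values. Ooep and Khdc3 lie on chromosome 9, Nlrp5 on chromosome 7, Padi6 on chromosome 4 and Tle6 on chromosome 10, which also holds Foxo3. Of the 20 genes within 2 places of a member, 14 were tested, with 4 higher and 2 lower in Foxo3-/- ovaries, where 4.13% and 4.22% of all tested probes were. Named after their values were seen, the 4 are Dppa5a and Cgas (0.30, adjusted p = 0.0369) near Ooep, and Rab27a (0.56, adjusted p = 0.00114) and Rsl24d1 (0.31, adjusted p = 0.0295) on either side of Khdc3. The 2 are Tle2 and Tle5, on the same side of Tle6.

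Some markers of other ovarian cells moved with the genotype as well, in a comparison where 4.13% of all tested probes were called higher and 4.22% lower. Of 5 stroma markers 3 fell, Dcn, Pdgfra and Lum, while Col1a1 was at -0.04 and Col1a2 at 0.21 (adjusted p = 0.197), not called. The summed level was 15150 to 16240 in Tg Foxo3-/- and 14700 to 16610 in NoTg Foxo3-/- ovaries, against 20230 to 22520 in Tg Foxo3+/- and 19570 to 23720 in NoTg Foxo3+/- ovaries, and Dcn made up 63.7% of its genotype difference. Of 5 surface epithelium markers 3 fell (Krt8, Krt18 and Lgr5), and of 4 theca markers 2 fell (Cyp11a1 and Hsd3b1). Of 8 granulosa markers 0 were called by limma, with a median of -0.0033. Of 4 endothelium and 3 macrophage markers tested, 0 were called by limma, with medians of 0.10 and -0.30. The macrophage markers ranged from -0.43 to 0.02. The part of these cells in the members' difference was not tested.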

How the data were processed

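Total RNA of mouse ovaries was measured on 12 Illumina bead arrays. The deposited raw intensity table holds a linear bead summary per probe and array, neither background-subtracted nor normalized, as its values show. Per the file headers it also gives a detection p-value for each. Intensity values normalized by the authors were used only as an alternative, by a method not given in the sources used here. RNA was amplified and biotin-labelled with an Illumina kit, per the labels' protocols.

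With limma 3.58.1 in R 4.3.3, background was corrected by normexp from the detection p-values (offset 16), followed by quantile normalization and log2. Probes detected at p under 0.05 on at least 3 arrays were tested, 22511 of 45281, and all 7 of the complex passed. The model (lmFit) had 4 group means over the 12 arrays, and eBayes was run with a trend on intensity. Benjamini-Hochberg adjustment ran over all tested probes, two-sided, with calls at adjusted p under 0.05. A gene was counted by its brightest tested probe. Of all probes, 34885 carry 1 gene symbol, 18 several, and 10378 are unnamed here. The number of arrays limits precision. The sources used here name neither chip nor scan day.

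Named genes are the members, up to 4 per list by smallest p in the averaged genotype comparison, called partners, and the 10 closest profiles. Dnmt3l, the paralogues and oocyte genes past the first 4, neighbours and cell type markers were named after their values were seen. The members and lists were chosen with earlier results of these data known. In simulated data, the averaged comparison recovered 56% of log2 changes of 0.5 and 92% of changes of 1, with 100 of 22511 probes changed at each size. The comparison within Tg recovered 16% and 74%, and that within NoTg 18% and 75%. The averaged comparison of the real data called 1878 probes. What passes the adjustment depends on how many probes change, so these shares are not recovery rates for the real data. Replicate numbers were checked for pairing. Same-numbered arrays of different groups deviated together with correlations of -0.18 to 0.26, and differently numbered ones with -0.23 to 0.22. Correlations above 0.1 occurred in 6 of 18 and 6 of 36 pairs. Between the NoTg groups the same-numbered pairs were at 0.17 to 0.20, so a pairing there is not excluded. The main model had no block, and a replicate block was run as an alternative. Gene order is from RefSeq on GRCm38.p6, used for names and neighbours only, and promoter windows are from the same assembly. Alternatives were the background correction, the scaling, the authors' values, the filter, a replicate block, array weights, no trend, the array background as a covariate, the compared groups alone, averaging the probes of a gene, and leaving out each array in turn.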

Additional observations from a re-analysis of the deposited data

How the results depend on the processing

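In the averaged genotype comparison, members called numbered 5, with 3 under median scaling, 0 with the array background as a covariate and 4 to 5 when any 1 array was left out. Nlrp5 probe 1 also lost its call there with no filter (adjusted p = 0.106) or no intensity trend (adjusted p = 0.104). In Tg ovaries the count was 3, with 5 under array weights, 4 with no background correction, a stricter filter or averaged probes, 2 under median scaling, 0 with the background covariate and 2 to 3 when an array was left out. In NoTg ovaries it was 1, with 2 under the authors' values and under array weights, 0 under median scaling, no filter, no trend, the background covariate or only the compared groups, and 0 to 2 when an array was left out. For the transgene it was 0 except under array weights, with 2 lower in Foxo3+/- and 1 lower in the averaged comparison. The cause was not tested. Directions held for every probe in the averaged and Tg genotype comparisons under the settings run. In NoTg ovaries Nlrp5 probe 2 turned to 0.11 under median scaling, 0.086 under the authors' values, 0.14 under array weights, and -0.17 to 0.24 when an array was left out. The array background separated Tg from NoTg arrays, so as a covariate it widens the error of transgene differences. With the background covariate, averaged transgene differences turned to 0.36 for Khdc3, 0.25 for Tle6, 0.13 for Nlrp5 probe 2 and 0.0043 for Ooep. In Foxo3+/- they turned to 0.12 for Khdc3 and 0.21 for Tle6, and in Foxo3-/- to 0.29 for Tle6, 0.044 for Ooep, 0.038 for Padi6 and -0.064 for Nlrp5 probe 1. In Foxo3-/- ovaries the transgene difference also turned to -0.013 for Khdc3 under median scaling, -0.042 for Nlrp5 probe 1 under the authors' values and -0.044 under array weights, and to -0.026 for probe 2, 0.16 for probe 3 and 0.0029 for Ooep under array weights. Median scaling gave probe 3 a transgene difference of 0.032 in Foxo3+/- and an interaction of -0.18, and the authors' values an interaction of -0.069. Leaving out an array gave probe 3 interactions of -0.060 to 0.42, averaged transgene differences of -0.16 to 0.083 and -0.19 to 0.29 in Foxo3-/-. Probe 2 ranged from -0.18 to 0.033 averaged and -0.15 to 0.27 in Foxo3-/-. Probe 1 ranged from -0.014 to 0.13 in the interaction, -0.058 to 0.018 averaged, -0.056 to 0.053 in Foxo3-/- and -0.12 to 0.025 in Foxo3+/-, and Ooep from -0.050 to 0.0047 in Foxo3-/-. The replicate block left the counts of members at 5, 3 and 1, and brought Nlrp5 probe 3 in NoTg ovaries to a call (0.79, adjusted p = 0.0475). Over all probes the averaged genotype count of 1878 was 1049 to 2139 with an array left out and 119 to 3404 otherwise. It was 491 in Tg ovaries (124 to 765, and 17 to 2698) and 205 in NoTg ovaries (35 to 343, and 16 to 746). The transgene counts were 687 averaged (370 to 981, and 0 to 1641), 43 in Foxo3-/- (0 to 193, and 0 to 512) and 82 in Foxo3+/- (0 to 127, and 0 to 925).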
